A study of Mus musculus with 6 samples.

Results

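The genes described here encode the 4 classical systems of guidance cues and their receptors: ephrins and Eph receptors, semaphorins and plexins, Slit and Robo, and netrins and Unc5. They were taken by gene symbol from the probe annotation of an Affymetrix mouse array, counting only probe sets with a single symbol. This gave 140 probe sets for 65 genes, of 18193 genes measured: 8 ephrins, 13 Eph receptors, 20 semaphorins, 9 plexins, 7 Slit and Robo genes, and 8 netrin and Unc5 genes. Where a gene had several probe sets, the brightest on average over the 6 arrays was used. A gene entered the test if it exceeded the 40th percentile of all probe sets on at least 2 arrays. Of the 65 genes, 52 did so and 13 did not.

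RNA came from mouse embryonic stem cells grown as embryoid bodies to day 4 and sorted for Flk1 (gene Kdr), a receptor of early mesoderm from which blood, vessels and heart derive. The WT Scl+ group (2 arrays) and the WT Scl- group (2 arrays) were Flk1+ cells of the WT hCD4 Scl reporter mESC line, made from R1 cells of (129/Sv x 129/Sv-CP)F1 origin. That line carries a human CD4 knock-in that reports Scl (gene Tal1), a transcription factor needed for blood, and human CD4 on the surface split the 2 groups. The SclKO group (2 arrays) was Flk1+ cells of the SclKO mESC line, made from J1 cells of 129S4/SvJae origin and lacking Scl. The SclKO cells were sorted on Flk1 alone, so that where SclKO is compared, the loss of Scl, the parent ES line and the sort gate cannot be told apart. The labels do not say whether the 2 arrays of a group came from separate cultures, and p-values may then reflect technical spread between arrays only.

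Levels are natural logs of the deposited values, and differences are in natural-log units. The base of the deposited values is not stated, so that 1 log unit is 2-fold if taking natural logs restores RMA's log2 values, and 2.72-fold if the deposited values are linear. Where folds are printed, the smaller is the first reading and the larger the second. Levels are compared between groups for 1 gene, never between genes. A value under its array's 40th percentile (4.54 to 4.59) is called dim, since it gives no exact level. In sorted cells measured in bulk, fewer cells expressing a gene and less RNA per cell cannot be told apart.

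Tal1 was at 8.65 and 8.78 in WT Scl+, 6.52 and 7.97 in WT Scl-, and 5.71 and 6.14 in SclKO. Kdr lay between 10.83 and 11.35 on all 6. WT Scl+ replicate 2 stood apart from the other arrays. Its correlation with WT Scl+ replicate 1 across tested genes was 0.9687, below that of replicate 1 with any WT Scl- or SclKO array (0.9738 to 0.9866). WT Scl- replicate 2 also correlated more with WT Scl+ replicate 1 (0.9866) than with WT Scl- replicate 1 (0.9834). The results below therefore carry values without WT Scl+ replicate 2, or without another array, where the size turned on 1 array. Marker genes of other cell types differed between the groups as well. The mean level of 10 endothelial markers was 6.83 and 7.40 in WT Scl+, 4.67 and 6.28 in WT Scl-, and 5.09 and 5.94 in SclKO, and Emcn was dim on every array. That of 9 early blood markers was 7.34 and 7.17, then 5.19 and 6.18, then 4.91 and 5.06, with Ptprc dim on every array. The mean of 8 measured markers of Flk1+ mesoderm ran the other way, at 8.77 and 8.05 in WT Scl+, 9.95 and 9.47 in WT Scl-, and 10.02 and 9.73 in SclKO. For 8 measured neural markers it was 5.13 and 5.22, then 4.69 and 4.77, then 4.99 and 4.88, with Sox1 and Neurog2 dim on every array.

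Guidance cues steer cells as well as axons. An ephrin on one cell binds an Eph receptor tyrosine kinase on its neighbour, and both cells can receive a signal. Ephrin-A ligands are held in the membrane by a lipid anchor, while ephrin-B ligands cross it. Semaphorins act on plexins, the secreted class with neuropilins as co-receptors. Slit proteins act on Robo receptors, and netrins act on Dcc, Neo1 and the Unc5 family. In vessels, Efnb2 marks arteries and its receptor Ephb4 marks veins, Plxnd1 receives Sema3e, and Robo4 and Unc5b are endothelial receptors.

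A set of guidance genes was lower in WT Scl+ cells than in both WT Scl- and SclKO. In it were the ephrins Efnb3, Efna3, Efnb1 and Efna1, the receptors Ephb3, Epha4 and Robo1, and the plexin Plxna4. Efnb2, Plxnc1 and Unc5c were highest in WT Scl+, Sema6a, Sema4d and Plxnd1 were lowest in WT Scl-, and Sema4c, Plxnb1 and Robo3 were highest in SclKO. On the WT Scl+ arrays 12 of the 52 genes tested (23.1%) were lower than on all 4 other arrays, against 10.6% of all 12922 genes tested, and 7 (13.5%) were higher, against 10.9%. On the SclKO arrays 10 genes (19.2%) were higher than on all 4 others, against 12.1% of all genes, and 3 (5.77%) were lower, against 8.68%. On the WT Scl- arrays 7 (13.5%) were lower than on all 4 others, against 6.4%, and 1 was higher, against 5.24%. The groups share arrays, so these 3 sets of counts are not independent, and none of them was tested. Epha10 passed the filter only through its WT Scl+ arrays and so had to be higher there.

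**Figure D1:**
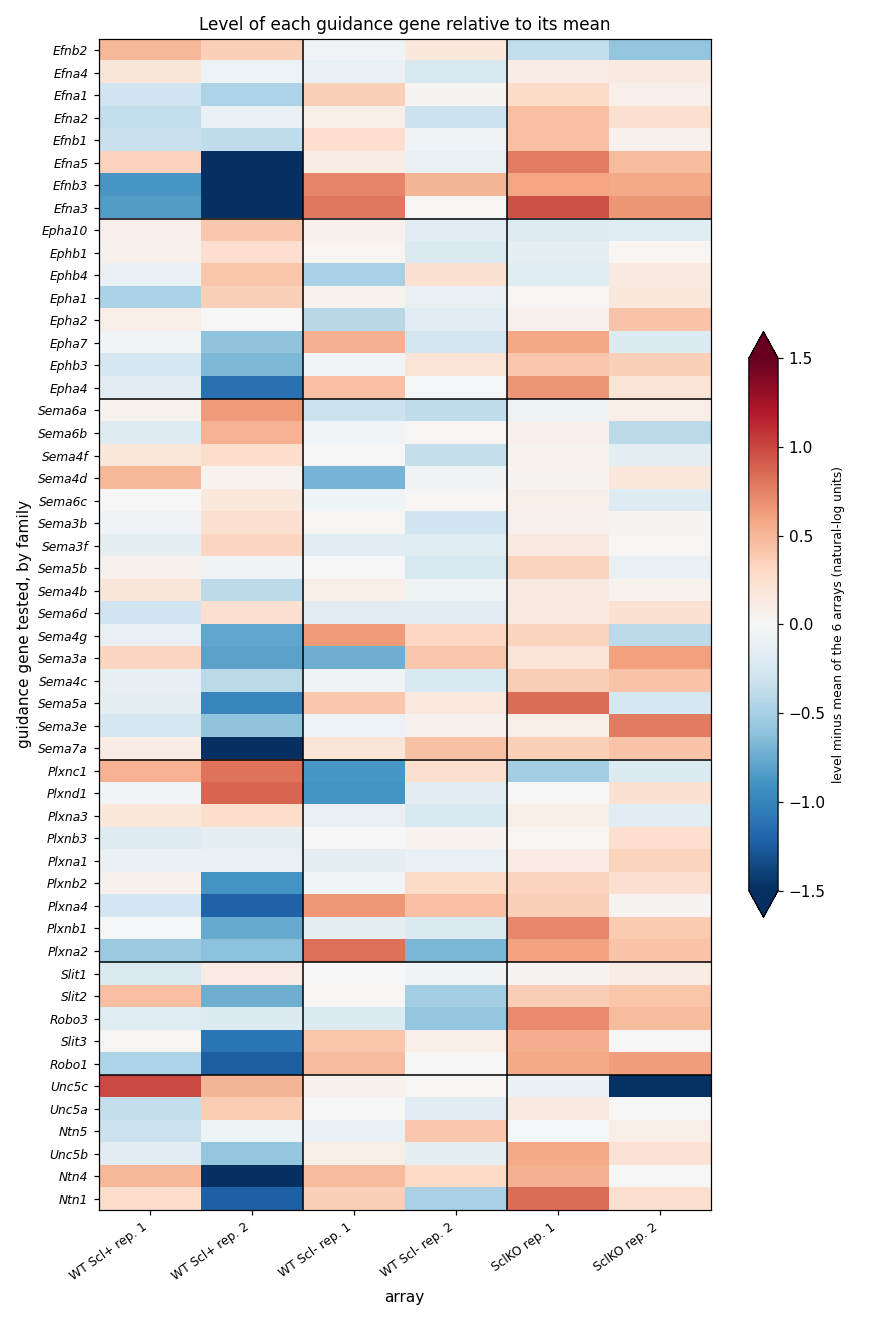
Level of each of the 52 guidance genes tested on each of the 6 arrays, minus the gene's mean over the arrays, in natural-log units (colour, clipped at 1.5 on either side). Rows are grouped by family and vertical lines separate the 3 groups. Efnb3, Efna3 and Robo1 are blue on both WT Scl+ arrays, and WT Scl+ replicate 2 has most of the deepest blues, as for Efna5, Sema7a and Ntn4, and SclKO replicate 2 that of Unc5c.

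No single guidance gene passed limma's test after adjustment over all genes. In WT Scl+ against WT Scl-, 0 of 52 had an adjusted p under 0.05 (background 0% of all genes, lowest adjusted p of a guidance gene 0.397). At an unadjusted p under 0.05, 4 were higher in WT Scl+ (background 5.39%) and 8 lower (3.75%), 23.1% of those tested, against 9.14% of all genes. For SclKO against WT Scl+, 0 passed (background 0.00774%, lowest adjusted p 0.117). At an unadjusted p under 0.05, 14 were higher in SclKO (background 7.16%) and 3 lower (6.81%), 32.7% in all against 14% of all genes. For SclKO against WT Scl-, 0 passed (background 0.00774%, lowest adjusted p 0.808), with 4 higher (background 3.15%) and 1 lower (2.38%) at an unadjusted p under 0.05, 9.62% against 5.53%, a share closer to the background. The 1 gene called over all genes in both SclKO comparisons was Cdkn1c, an inhibitor of the cell cycle and no guidance gene, named here after its values were seen. The 2 arrays of each group did not overlap in 29 of 52 genes between the WT groups (14 higher and 15 lower in WT Scl+), where 37.4% of all genes did not overlap (18.9% higher and 18.5% lower). They did not overlap in 28 genes between SclKO and WT Scl+ (21 higher and 7 lower, background 43.4%, 23.2% and 20.2%) and in 24 between SclKO and WT Scl- (20 higher and 4 lower, background 41.6%, 22.9% and 18.7%). A positive difference was found for 23, 37 and 40 of the 52 in the 3 comparisons, against 46.1%, 55.5% and 54% of all genes. The median difference of the guidance genes was -0.10 log units in WT Scl+ against WT Scl- (all genes -0.02), 0.38 in SclKO against WT Scl+ (all genes 0.04) and 0.16 in SclKO against WT Scl- (all genes 0.02). Their median spread between replicate arrays was 0.30 log units, against 0.19 over all genes.

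Single arrays moved these counts. Of the guidance genes in WT Scl+ against WT Scl-, 12 had an unadjusted p under 0.05 with all arrays, 23 without WT Scl+ replicate 1, 7 without WT Scl+ replicate 2 and 6 without WT Scl- replicate 1. Between SclKO and WT Scl+, the 17 became 26 without WT Scl+ replicate 1, 12 without replicate 2 and 9 without SclKO replicate 1. Between SclKO and WT Scl-, the 5 became 2 without SclKO replicate 2, 3 without WT Scl- replicate 2 and 9 without either WT Scl+ array, which changes only the estimate of spread. With the replicate number as a block, the counts were 15, 24 and 8 in the 3 comparisons, and 3 genes in place of 1 were called over all genes in SclKO against WT Scl+. The share of all genes at an unadjusted p under 0.05 was not computed under these settings, so the guidance counts have no background beside them. Leaving out WT Scl+ replicate 1 leaves that group with the array that stood apart. The median guidance gene difference was then -0.19 in WT Scl+ against WT Scl- (all genes -0.07). In SclKO against WT Scl+ it was 0.47 (all genes 0.08). In those fits the lone array was assumed to vary like the other groups.

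**Figure D2:**
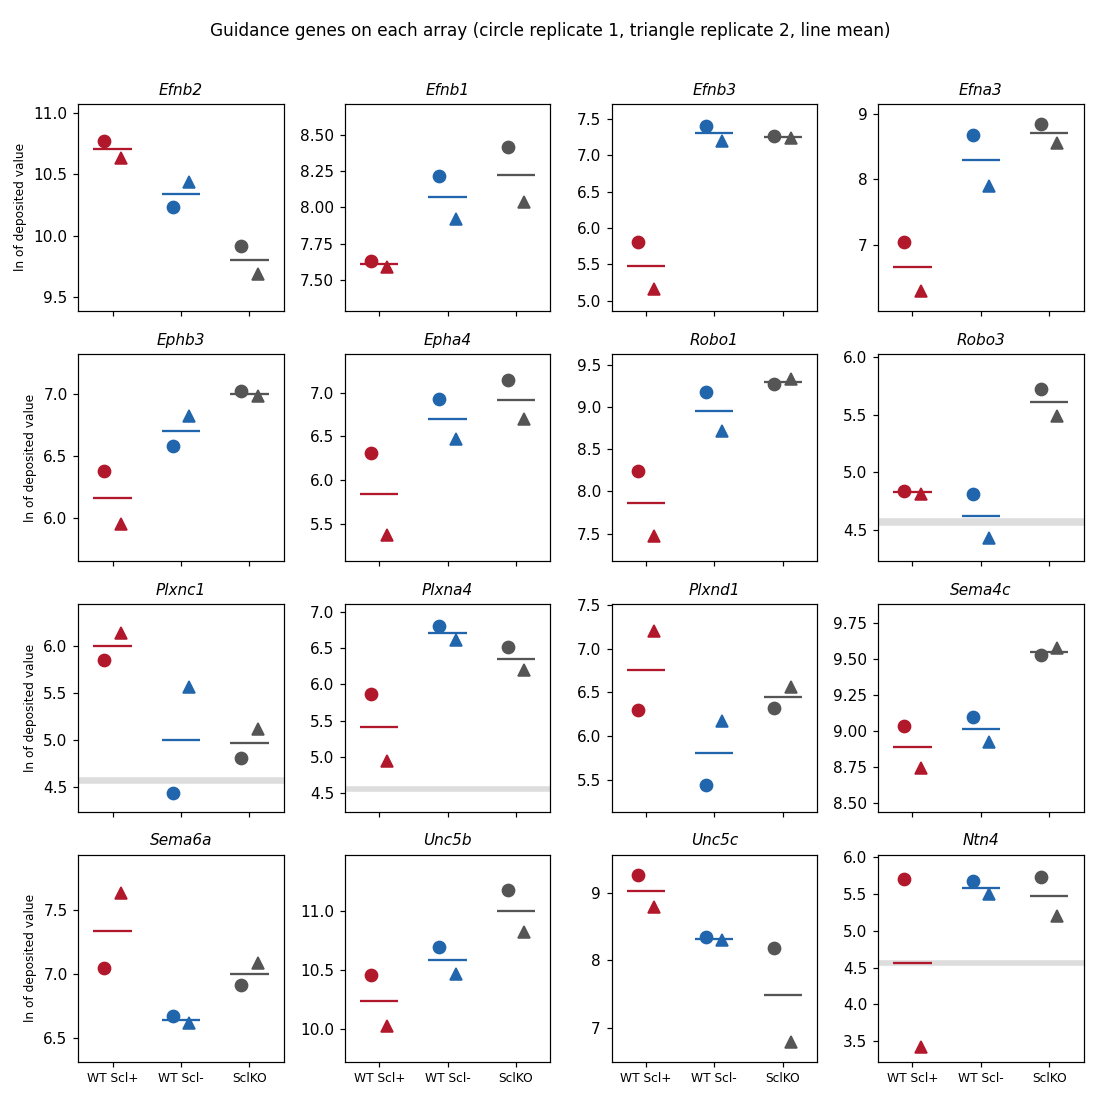
Natural log of the deposited value of 16 guidance genes on each array, by group, with circles for replicate 1, triangles for replicate 2 and lines for the mean of the 2. The grey band is the range of the 40th percentiles of the arrays (4.54 to 4.59), drawn where it falls on the axis. Efnb3 lies at 5.80 and 5.16 in WT Scl+ and at 7.19 or more on the other 4 arrays, while Efnb2 and Unc5c step down from WT Scl+ to SclKO.

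The ephrins held the largest differences in both comparisons with WT Scl+. Efnb3, a transmembrane ephrin best known from the nervous system, was at 5.80 and 5.16 in WT Scl+, 7.41 and 7.19 in WT Scl-, and 7.27 and 7.24 in SclKO. Both WT Scl+ arrays lay well below the other 4, which sat close together. The difference was -1.82 log units in WT Scl+ against WT Scl- (SE 0.24, 3.53-fold or 6.16-fold lower, adjusted p = 0.397). It was 1.77 in SclKO against WT Scl+ (SE 0.24, adjusted p = 0.117), and -0.04 in SclKO against WT Scl- (SE 0.24). Without WT Scl+ replicate 2 the first 2 were -1.50 and 1.45. Efna3, a lipid-anchored ephrin, was at 7.05 and 6.31 in WT Scl+, 8.68 and 7.91 in WT Scl-, and 8.85 and 8.55 in SclKO. WT Scl+ was again the low group, without overlap. The differences were -1.62 log units (SE 0.34, adjusted p = 0.397) for WT Scl+ against WT Scl- and 2.02 (SE 0.34, 4.07-fold or 7.57-fold, adjusted p = 0.131) for SclKO against WT Scl+. A second Efna3 probe set gave -0.81 and 1.21.

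Efnb2, the arterial ephrin, showed the opposite order. It was at 10.78 and 10.64 in WT Scl+, 10.24 and 10.44 in WT Scl-, and 9.92 and 9.69 in SclKO, so that the 3 groups formed a descending series without overlap. SclKO minus WT Scl+ was -0.90 log units (1.87-fold or 2.47-fold lower, SE 0.17, adjusted p = 0.134), and SclKO minus WT Scl- was -0.53 (SE 0.17, adjusted p = 0.886). WT Scl+ differed from WT Scl- by 0.37 (SE 0.17, adjusted p = 0.576). All 4 Efnb2 probe sets agreed in sign, at 0.37 to 0.61 in WT Scl+ against WT Scl-, -1.13 to -0.90 in SclKO against WT Scl+, and -0.57 to -0.52 in SclKO against WT Scl-. The mean of the endothelial markers given above was also highest in WT Scl+. Its SclKO arrays (5.09 and 5.94) overlapped its WT Scl- arrays (4.67 and 6.28). The early blood marker mean descended without overlap as Efnb2 did, at 7.34 and 7.17, then 5.19 and 6.18, then 4.91 and 5.06. The part of endothelial or blood cells in the Efnb2 level was not tested.

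The other ephrins differed less. Efnb1 was at 7.63 and 7.59 in WT Scl+, 8.22 and 7.92 in WT Scl-, and 8.42 and 8.04 in SclKO, with a difference of 0.62 log units in SclKO against WT Scl+ (SE 0.19, adjusted p = 0.26). Its 3 probe sets gave 0.62 to 0.97 there. Efna1 was at 6.53 and 6.36 in WT Scl+ and between 6.86 and 7.18 on the other 4 arrays. Its differences were -0.57 (SE 0.18, adjusted p = 0.444) and 0.56 (SE 0.18, adjusted p = 0.274). Its second probe set gave only 0.05 in SclKO against WT Scl+. Efna2 was highest in SclKO, at 8.04 and 7.83, against 7.22 and 7.48 in WT Scl+ and 7.69 and 7.26 in WT Scl-, a difference from WT Scl+ of 0.59 (SE 0.21, adjusted p = 0.305). Efna5 was low on WT Scl+ replicate 2 alone, at 5.44, against 7.36 on replicate 1 and 6.91 to 7.78 elsewhere. Its difference of 1.23 in SclKO against WT Scl+ (SE 0.57, adjusted p = 0.404) includes that array, and its 0.62 in SclKO against WT Scl- (SE 0.57) was the largest positive one of the family there (0.34 with the mean of its probe sets). Efna4 was dim on both WT Scl- arrays and 1 WT Scl+ array, with no difference beyond 0.30. Of the 8 ephrins, 6 had a negative difference in WT Scl+ against WT Scl- and 7 a positive one in SclKO against WT Scl+.

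Among the Eph receptors, 2 followed the pattern of Efnb3 and Efna3. Ephb3, a receptor for ephrin-B ligands, was at 6.37 and 5.95 in WT Scl+, 6.58 and 6.82 in WT Scl-, and 7.03 and 6.99 in SclKO. The groups formed an ascending series without overlap, with differences of -0.54 log units in WT Scl+ against WT Scl- (SE 0.20, adjusted p = 0.488; -0.33 without WT Scl+ replicate 2) and 0.85 in SclKO against WT Scl+ (SE 0.20, adjusted p = 0.176). Epha4, which binds both ephrin classes, was at 6.32 and 5.37 in WT Scl+, 6.94 and 6.47 in WT Scl-, and 7.15 and 6.70 in SclKO. Its differences were -0.86 (SE 0.35, adjusted p = 0.543) and 1.08 (SE 0.35, adjusted p = 0.28), and -0.39 and 0.61 without WT Scl+ replicate 2, while the first was -1.33 without WT Scl+ replicate 1. All 4 Epha4 probe sets that passed the filter had the same signs. Ephb4, the venous receptor of Efnb2, overlapped in all 3 groups: 7.66 and 8.18, then 7.27 and 7.99, then 7.58 and 7.90. Its difference in WT Scl+ against WT Scl- was 0.29 (SE 0.30), and -0.07 without WT Scl- replicate 1. Epha2, an early epithelial and streak receptor, had the largest positive difference of the family in WT Scl+ against WT Scl- (0.35, SE 0.19) and in SclKO against WT Scl- (0.54, SE 0.19, adjusted p = 0.886). They were 0.22 without WT Scl- replicate 1 and 0.35 without SclKO replicate 2. Epha2 was lowest in WT Scl-, at 4.81 and 5.06, against 5.33 and 5.24 in WT Scl+ and 5.29 and 5.66 in SclKO. Epha10, a receptor without an active kinase, was dim on both SclKO and both WT Scl- arrays, so no size is given between those groups. Its difference in SclKO against WT Scl+ was -0.42 (SE 0.18, or -0.26 without WT Scl+ replicate 2). That size is not exact, and was -0.19 with dim values raised to the limit. Of the 13 receptors, 5 were not tested: Epha3, Epha5, Epha6, Epha8 and Ephb6 were dim on all 6 arrays.

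The semaphorins were split, with 9 of 16 tested genes positive in WT Scl+ against WT Scl- and a median difference of 0.11 log units. Sema6a, a transmembrane ligand of Plxna2 and Plxna4, was at 7.05 and 7.64 in WT Scl+, 6.67 and 6.62 in WT Scl-, and 6.91 and 7.09 in SclKO. It was lowest in WT Scl-, and the difference of 0.70 between the WT groups (SE 0.22, adjusted p = 0.448) was the largest positive one of the family. Without WT Scl+ replicate 2 it was 0.40. Sema6a differed by -0.34 in SclKO against WT Scl+ (SE 0.22), which was -0.04 without that array and -0.63 without WT Scl+ replicate 1. Sema4d, a ligand of Plxnb1, was at 6.27 and 5.82 in WT Scl+, 5.07 and 5.71 in WT Scl-, and 5.81 and 5.93 in SclKO, a difference between the WT groups of 0.65 (SE 0.26, adjusted p = 0.526). It was 0.33 without WT Scl- replicate 1 and 0.43 without WT Scl+ replicate 1. Sema4g, another transmembrane semaphorin, was lower in WT Scl+, at 6.25 and 5.58 against 7.00 and 6.67 (difference -0.92, SE 0.32, adjusted p = 0.481). The difference was -0.59 without WT Scl+ replicate 2. Its SclKO arrays, at 6.69 and 5.97, overlapped those of WT Scl+.

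In SclKO, 2 semaphorins stood above the WT Scl+ level at an unadjusted p under 0.05. Sema4c, a ligand of Plxnb2, was at 9.52 and 9.58 in SclKO, 9.03 and 8.74 in WT Scl+, and 9.10 and 8.92 in WT Scl-. SclKO was the high group against both others, by 0.66 log units (SE 0.17, adjusted p = 0.195) and 0.54 (SE 0.17, adjusted p = 0.886). Sema3e, the secreted ligand of Plxnd1, was at 5.93 and 6.61 in SclKO, 5.58 and 5.23 in WT Scl+, and 5.75 and 5.89 in WT Scl-. It differed from WT Scl+ by 0.86 (SE 0.26, adjusted p = 0.25), or by 0.52 without SclKO replicate 2. Sema7a, a lipid-anchored ligand of Plxnc1, had the largest differences of the family (-1.02 and 1.09, SE 0.49), but they rested on WT Scl+ replicate 2, at 4.28. WT Scl+ replicate 1 was at 5.92 and the other 4 arrays at 5.99 to 6.25, and without replicate 2 the differences were -0.20 and 0.27. Without replicate 1 they were -1.83 and 1.91. Sema3a had the largest positive difference in SclKO against WT Scl- (0.57, SE 0.49), with values from 6.50 to 7.92 and a spread within each WT group of over 1 log unit. It was 0.0017 without WT Scl- replicate 1, 1.14 without WT Scl- replicate 2 and 0.36 without SclKO replicate 2. Sema3d and Sema4a were dim on all arrays, while Sema3c exceeded the limit on WT Scl+ replicate 1 alone and Sema3g on WT Scl+ replicate 2 alone.

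The plexins differed in direction between the WT groups. Plxnc1, the receptor of Sema7a, was at 5.85 and 6.14 in WT Scl+, 4.44 and 5.56 in WT Scl-, and 4.81 and 5.12 in SclKO. WT Scl+ was the high group without overlap, although WT Scl- replicate 2 lay nearer to it than replicate 1 did. The differences were 0.99 log units (SE 0.37, adjusted p = 0.493) for WT Scl+ against WT Scl- and -1.03 (SE 0.37, adjusted p = 0.307) for SclKO against WT Scl+. Without WT Scl- replicate 1 the first was 0.43, and without WT Scl- replicate 2 it was 1.55. The 5 Plxnc1 probe sets that passed the filter gave 0.99 to 1.95 and -2.26 to -0.98. Some of them exceeded the limit on 2 arrays only, both WT Scl+, and so had to be higher there. The probe set that gave 1.95 and -2.26 was dim on WT Scl- replicate 1 and on both SclKO arrays, so those sizes are not exact. The one used for the gene exceeded the limit on 5 arrays. Plxnd1, an endothelial plexin, was at 6.30 and 7.20 in WT Scl+, 5.44 and 6.17 in WT Scl-, and 6.32 and 6.56 in SclKO. WT Scl- was the low group, with a difference between the WT groups of 0.94 (SE 0.36, adjusted p = 0.509), or 0.49 without WT Scl+ replicate 2 and 0.58 without WT Scl- replicate 1. SclKO differed from WT Scl+ by -0.31 (SE 0.36), a sign that turned (0.15) without WT Scl+ replicate 2. It was -0.76 without WT Scl+ replicate 1 and -0.19 without SclKO replicate 1. On the WT Scl- arrays both plexins and the endothelial marker mean (4.67 and 6.28) were lower on replicate 1 than on replicate 2. The part of endothelial cells in these levels was not tested.

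Other plexins were lower in WT Scl+. Plxna4, a receptor of Sema6a and, with neuropilin, of Sema3a, was at 5.87 and 4.95 in WT Scl+, 6.80 and 6.61 in WT Scl-, and 6.52 and 6.19 in SclKO. The differences were -1.29 log units (SE 0.32, 2.45-fold or 3.65-fold lower, adjusted p = 0.397) and 0.95 (SE 0.32, adjusted p = 0.288), or -0.83 and 0.48 without WT Scl+ replicate 2. Its difference in SclKO against WT Scl- was -0.35 (SE 0.32), the largest negative one of the plexins, but -0.19 without SclKO replicate 2 and -0.06 with the mean of its probe sets. Plxnb1, the receptor of Sema4d, was highest in SclKO, at 7.57 and 7.25, against 6.83 and 6.09 in WT Scl+ and 6.71 and 6.65 in WT Scl-. SclKO lay above WT Scl+ by 0.95 (SE 0.27, adjusted p = 0.23; 0.58 without WT Scl+ replicate 2) and above WT Scl- by 0.73 (SE 0.27, adjusted p = 0.886). Plxna2 had the largest positive difference in SclKO against WT Scl+, at 1.10 (SE 0.46, adjusted p = 0.362), and its 4 probe sets gave 1.10 to 1.72. On the WT Scl- arrays the probe set used was at 8.36 and 6.84, on either side of the WT Scl+ arrays (6.97 and 6.92). The 4 probe sets gave -1.57 to -0.65 in WT Scl+ against WT Scl-. In those not used, the WT groups did not overlap.

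Robo1 and Robo3, receptors of the same family, were both highest in SclKO but differed in the WT groups. Robo1 was at 8.25 and 7.47 in WT Scl+, 9.18 and 8.72 in WT Scl-, and 9.28 and 9.33 in SclKO. The groups did not overlap, with WT Scl+ lowest. The differences were -1.09 log units between the WT groups (SE 0.29, adjusted p = 0.404) and 1.45 in SclKO against WT Scl+ (SE 0.29, 2.72-fold or 4.24-fold, adjusted p = 0.151). A second Robo1 probe set gave -1.18 and 1.37, and without WT Scl+ replicate 2 the values were -0.70 and 1.06. Robo3, known from axons that cross the midline, was at 4.84 and 4.81 in WT Scl+, 4.81 and 4.43 in WT Scl-, and 5.73 and 5.49 in SclKO. The WT values lay close to the limit for dim values, which WT Scl- replicate 2 did not reach, and the WT groups differed by 0.21 (SE 0.19). SclKO lay above WT Scl+ by 0.78 (SE 0.19, adjusted p = 0.178) and above WT Scl- by 0.99 (SE 0.19, adjusted p = 0.808), the lowest adjusted p of any guidance gene in the last comparison. A second Robo3 probe set gave only 0.13 and 0.27. Of the ligands, Slit3 was low on WT Scl+ replicate 2 (5.26) and between 6.35 and 6.90 elsewhere, while Slit2 ranged from 4.37 to 5.56 with overlap of the WT groups. The differences of Slit3 were -0.79 in WT Scl+ against WT Scl- and 0.81 in SclKO against WT Scl+ (SE 0.39). They were -0.24 and 0.26 without WT Scl+ replicate 2, -1.35 and 1.37 without replicate 1, and the second was 0.54 without SclKO replicate 1. Slit1 had its values between 5.90 and 6.23 on all arrays. Robo4, the endothelial Robo, was dim on every array, with values from 3.03 to 4.18, and so was Robo2.

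The netrin receptors Unc5b and Unc5c ran in opposite directions. Unc5b, an endothelial receptor, was at 10.45 and 10.02 in WT Scl+, 10.70 and 10.46 in WT Scl-, and 11.17 and 10.82 in SclKO. SclKO was the high group, by 0.76 log units over WT Scl+ (SE 0.22, 1.69-fold or 2.14-fold, adjusted p = 0.238) and 0.42 over WT Scl- (SE 0.22, or 0.24 without SclKO replicate 1). Unc5c was at 9.27 and 8.78 in WT Scl+, 8.34 and 8.30 in WT Scl-, and 8.18 and 6.80 in SclKO. The groups did not overlap, and the SclKO arrays were the farthest apart. The difference from WT Scl+ was -1.54 (SE 0.44, 2.9-fold or 4.65-fold lower, adjusted p = 0.236), and -0.85 without SclKO replicate 2. Its second probe set gave -1.47. In that probe set the WT groups overlapped, at 7.41 and 6.62 in WT Scl+ and 6.42 and 6.66 in WT Scl-. The difference of Unc5c was 0.71 between the WT groups (SE 0.44) and -0.83 in SclKO against WT Scl- (SE 0.44), the latter -0.14 without SclKO replicate 2 and -1.52 without SclKO replicate 1. The difference between the WT groups was 0.47 without WT Scl+ replicate 1. Of the netrins themselves, Ntn4 was dim on WT Scl+ replicate 2 alone (3.42) and between 5.20 and 5.74 on the other 5 arrays. Its difference between the WT groups was -1.02 (SE 0.69), and 0.12 without that array or -2.17 without WT Scl+ replicate 1. Ntn1 was likewise lowest and dim there (3.98) and between 4.71 and 6.03 elsewhere, with a difference of 1.02 in SclKO against WT Scl+ (SE 0.53) and 0.61 in SclKO against WT Scl- (SE 0.53). The first was 0.27 without WT Scl+ replicate 2 and 1.76 without WT Scl+ replicate 1. The second was 0.18 without WT Scl- replicate 2, 1.03 without WT Scl- replicate 1 and 0.31 without SclKO replicate 1, and with the mean of probe sets they were 0.59 and 0.29. Ntn3 and Unc5d were dim on all arrays.

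**Figure D3:**
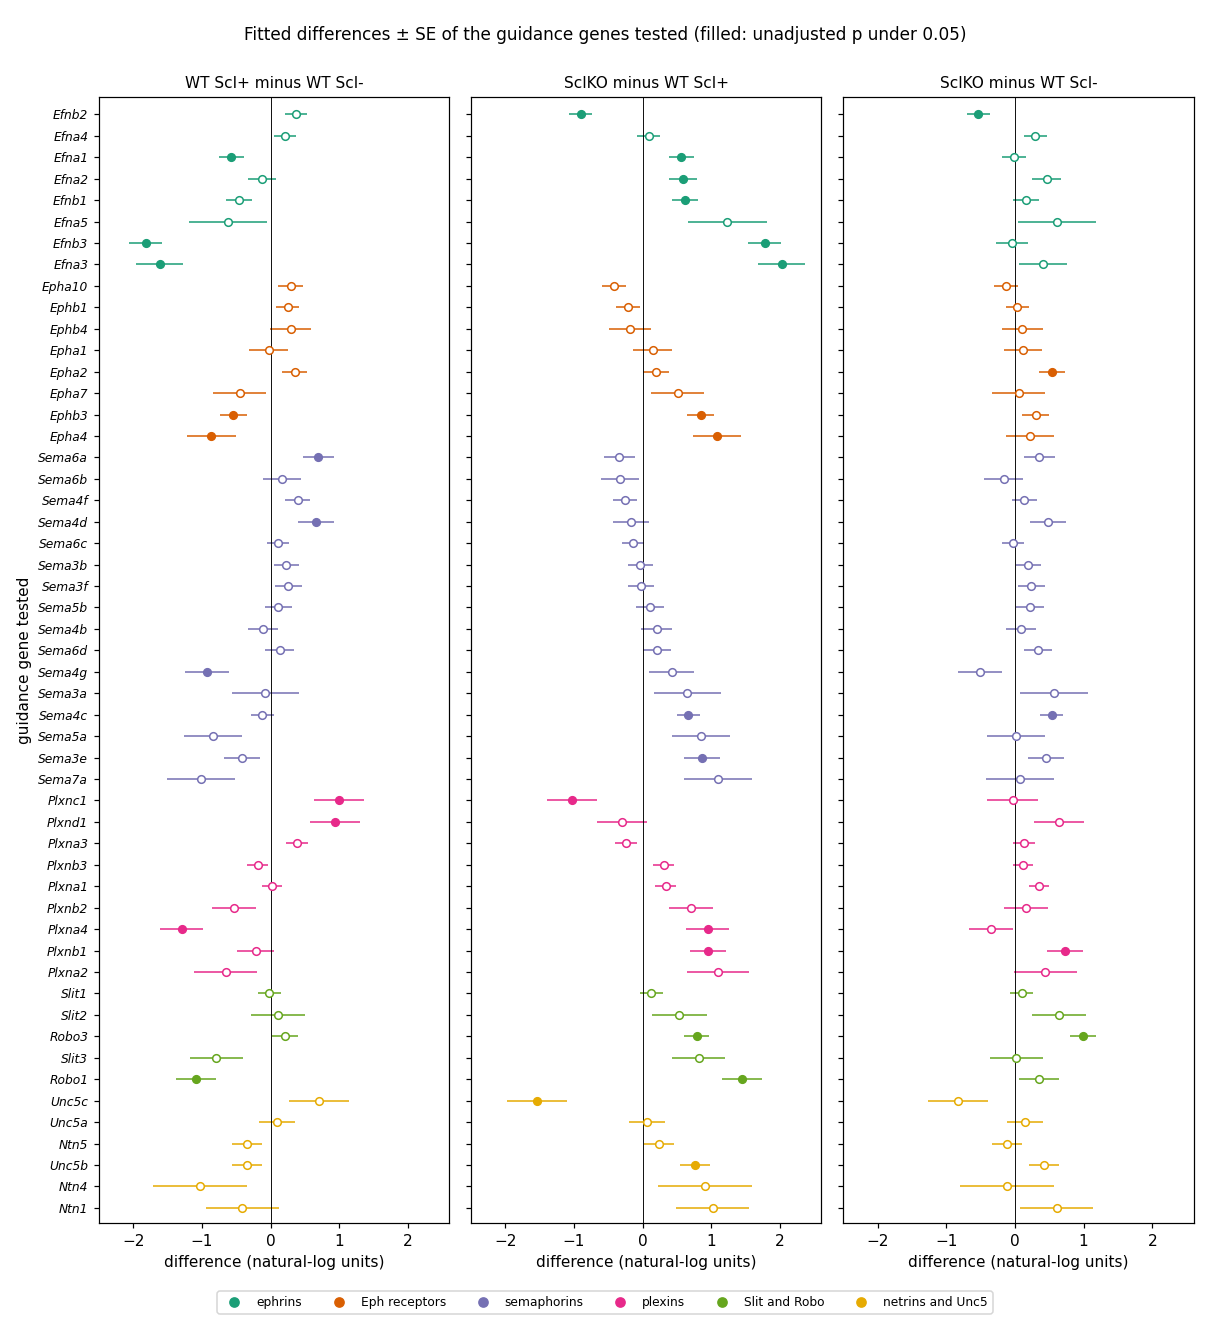
Fitted difference with its standard error, in natural-log units, of the 52 guidance genes tested, for WT Scl+ minus WT Scl-, SclKO minus WT Scl+ and SclKO minus WT Scl- (left to right). Filled points have an unadjusted p under 0.05, of which there are 12, 17 and 5, and none has an adjusted p under 0.05. The first 2 panels share the WT Scl+ arrays, and the last 2 share the SclKO arrays.

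Promoter sequence is shown for 5 genes with contrasting patterns. Scl, whose reporter split the WT groups, binds the E-box CANNTG with its partners and often sits beside GATA factors. Whether Scl acts on these genes was not tested. The windows are the 250 bases before the start of transcription in RefSeq (GRCm38.p6), 5′ to 3′ on the gene's strand. Capitals mark every CANNTG and every GATA on either strand. Efnb2 (chr8:8661243-8661492, minus strand) and Plxnc1 (chr10:94944846-94945095, minus strand) were highest in WT Scl+. Robo1 (chr16:72662899-72663148, plus strand), Efna3 (chr3:89322940-89323189, minus strand, the first of 2 listed starts) and Ephb3 (chr16:21204545-21204794, plus strand) were lowest there.
Efnb2: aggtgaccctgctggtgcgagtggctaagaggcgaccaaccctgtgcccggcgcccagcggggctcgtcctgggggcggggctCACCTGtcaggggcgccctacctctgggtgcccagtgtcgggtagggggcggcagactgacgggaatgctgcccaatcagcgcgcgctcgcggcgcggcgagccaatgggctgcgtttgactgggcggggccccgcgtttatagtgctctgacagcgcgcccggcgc
Plxnc1: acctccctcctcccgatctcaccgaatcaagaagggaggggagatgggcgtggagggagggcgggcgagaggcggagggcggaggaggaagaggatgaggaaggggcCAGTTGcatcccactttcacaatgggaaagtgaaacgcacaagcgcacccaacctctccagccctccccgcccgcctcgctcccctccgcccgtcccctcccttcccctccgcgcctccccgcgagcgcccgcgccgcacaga
Robo1: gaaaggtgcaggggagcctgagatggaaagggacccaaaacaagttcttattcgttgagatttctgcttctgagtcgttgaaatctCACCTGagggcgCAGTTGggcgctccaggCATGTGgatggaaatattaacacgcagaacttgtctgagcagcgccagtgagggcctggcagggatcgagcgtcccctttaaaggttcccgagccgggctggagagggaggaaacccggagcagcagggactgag
Efna3: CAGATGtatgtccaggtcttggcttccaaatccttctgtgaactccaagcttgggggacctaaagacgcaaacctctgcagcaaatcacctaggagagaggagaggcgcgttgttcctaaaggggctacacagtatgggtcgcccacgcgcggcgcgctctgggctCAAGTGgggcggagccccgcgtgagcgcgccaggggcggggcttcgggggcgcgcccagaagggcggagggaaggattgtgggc
Ephb3: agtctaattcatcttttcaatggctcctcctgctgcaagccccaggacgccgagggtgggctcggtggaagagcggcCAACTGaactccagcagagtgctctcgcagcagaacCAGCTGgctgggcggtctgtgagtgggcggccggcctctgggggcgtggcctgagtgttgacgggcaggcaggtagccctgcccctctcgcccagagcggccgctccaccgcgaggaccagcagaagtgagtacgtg
CANNTG occurred 1 time in the Efnb2 and the Plxnc1 window, 3 times in that of Robo1, and 2 times in those of Efna3 and Ephb3, while GATA occurred in none of the 5. The second listed start of Efna3 had neither, and the window of Robo3, not printed, had 2 CANNTG and 1 GATA. RefSeq windows were matched for 56 of the 65 guidance genes, 72 windows in all. CANNTG was found in 35 of the 72 (48.6%), against 66.2% of all 32851 windows. Its subset CAGNTG, on either strand, was found in 28 (38.9%), against 44.8%, and GATA in 29 (40.3%), against 53.6%. A match is a stretch of letters and no evidence of binding.

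**Figure D4:**
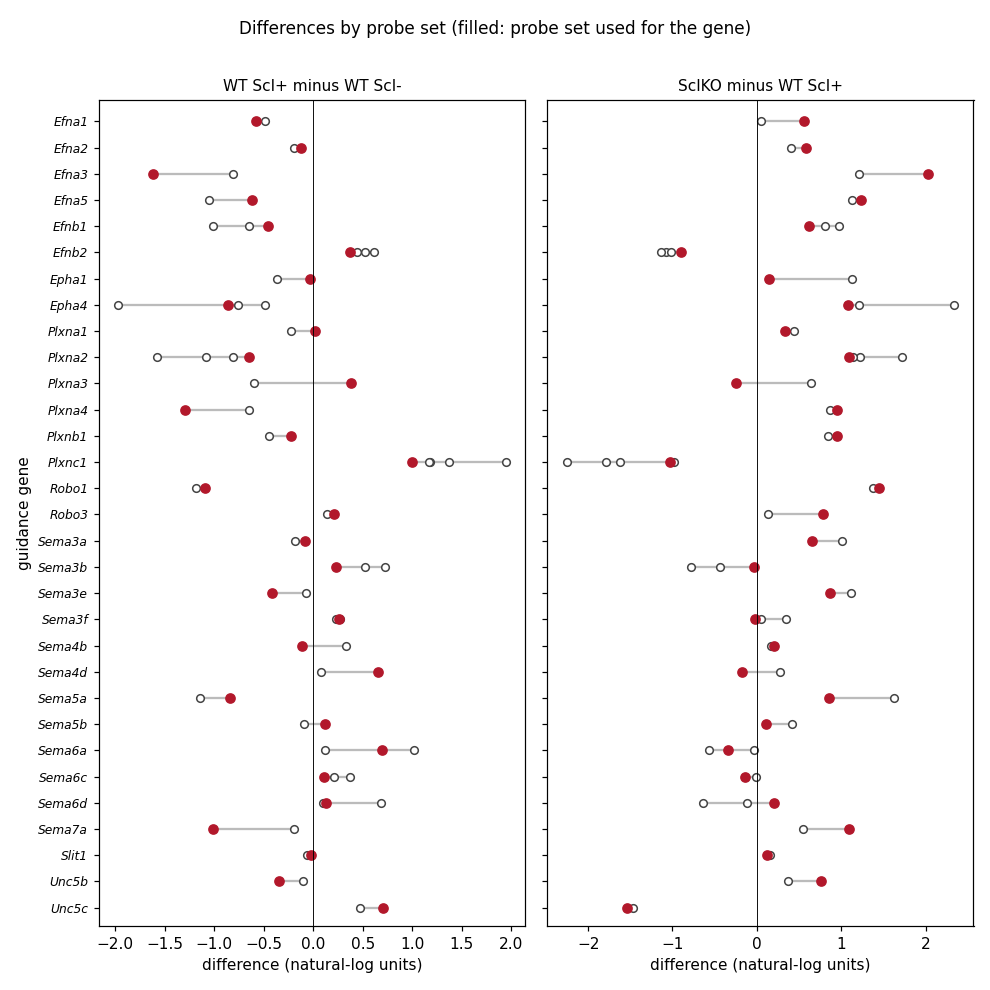
Differences in natural-log units for each probe set that passed the filter, in the 31 guidance genes with at least 2 such probe sets, for WT Scl+ minus WT Scl- (left) and SclKO minus WT Scl+ (right). The filled point is the probe set used for the gene. All 4 Efnb2 and all 5 Plxnc1 probe sets lie on 1 side of 0 in each panel, while those of Plxna3 lie on both sides. Some of the Plxnc1 probe sets passed the filter only through the WT Scl+ arrays and so had to be higher there.

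Of 140 guidance probe sets, 98 passed the filter, and 31 genes had 2 or more of them. Their probe sets had the same sign in 27 of 31 genes in WT Scl+ against WT Scl-, in 27 in SclKO against WT Scl+ and in 25 in SclKO against WT Scl-. The 4 genes with mixed signs in the first comparison were Plxna1, Plxna3, Sema4b and Sema5b, and in the second Plxna3, Sema3f, Sema4d and Sema6d. Plxna3 had the widest disagreement, at 0.38 and -0.60 in the first. Of the genes described above, only Sema4d in SclKO against WT Scl+, and Efnb1, Plxna4 and Plxnc1 in SclKO against WT Scl-, were among those with mixed signs. Efnb3, Efna4, Ephb3, Ephb4, Epha2, Epha10, Plxnd1, Sema4c, Sema4g and Slit3 each rest on 1 probe set.

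Co-receptors, adaptors and effectors of the same pathways were read from a list of 50 genes, of which 44 were tested. At an unadjusted p under 0.05 in limma's test, 3 were higher and 4 lower in WT Scl+ against WT Scl- (6.82% and 9.09%), where all genes gave 5.39% and 3.75%. Against WT Scl+, 7 were higher and 2 lower in SclKO (15.9% and 4.55%), where all genes gave 7.16% and 6.81%. Against WT Scl-, 0 were higher and 1 lower (0% and 2.27%), where all genes gave 3.15% and 2.38%. None of the 44 had an adjusted p under 0.05. The medians were -0.01, 0.12 and 0.13 log units. L1cam, an adhesion molecule in the Sema3a receptor complex, was at 5.94 and 4.27 in WT Scl+, 7.14 and 6.93 in WT Scl-, and 7.02 and 6.52 in SclKO. Its differences were -1.92 (SE 0.52, adjusted p = 0.404) and 1.66 (SE 0.52, adjusted p = 0.26), the low group again being WT Scl+. The value on WT Scl+ replicate 2 was dim, and without that array the differences were -1.09 and 0.83, while the second was 2.49 without WT Scl+ replicate 1. Dpysl4 and Dpysl5, collapsin response mediators that act below semaphorins, differed by -0.70 and -0.80 between the WT groups (SE 0.20 and 0.25) and by 0.59 and 0.89 in SclKO against WT Scl+. The 0.59 of Dpysl4 was 0.38 without WT Scl+ replicate 2, and its -0.70 was -0.38 with the mean of probe sets. For Dpysl5, -0.80 became -0.49 without WT Scl- replicate 1, and 0.89 became 1.34 with the mean of probe sets. Flrt1, from a family of Unc5 ligands, was highest in WT Scl-, at 5.25 and 5.88, against 4.74 and 4.72 in WT Scl+ and 4.59 and 4.49 in SclKO. The difference in SclKO against WT Scl- was -1.02 (SE 0.23, adjusted p = 0.808), or -0.52 with the mean of its probe sets, and SclKO replicate 2 was dim.

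In the other direction Fyn, a kinase used by many guidance receptors, was at 7.67 and 7.92 in WT Scl+, 6.74 and 7.21 in WT Scl-, and 7.04 and 7.30 in SclKO. Its differences were 0.82 (SE 0.22, adjusted p = 0.401) and -0.63 (SE 0.22, adjusted p = 0.292). Met, a receptor that can pair with plexins, and Adam10, a protease that cleaves ephrins, differed by 0.68 (SE 0.25) and 0.47 (SE 0.18) between the WT groups. Met was at 0.39 without WT Scl+ replicate 2, and Adam10 at 0.27 without WT Scl- replicate 1 and 0.21 with the mean of its probe sets. Arhgef15, an endothelial exchange factor bound by Epha4, differed by -0.92 in SclKO against WT Scl+ (SE 0.38, adjusted p = 0.355), or -0.52 without WT Scl+ replicate 2 and -0.53 without SclKO replicate 1. Higher in SclKO than in WT Scl+ as measured were the netrin receptor Neo1 (0.74, SE 0.28), Mical1 (0.63, SE 0.17), which oxidises actin below plexins, Limk1 (0.54, SE 0.18) and Enah (0.53, SE 0.18), both actin regulators. Without WT Scl+ replicate 2, Neo1 was at 0.35 and Enah at 0.33, and without replicate 1 Neo1 was at 1.13. With the mean of probe sets, Neo1 was at 0.27 and Limk1 at 0.18. The neuropilins Nrp1 and Nrp2 had no difference beyond 0.21 and 0.48 log units, and Dcc none beyond 0.13.

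Marker levels ran with both patterns. Like the guidance genes that were lowest in WT Scl+, the mean of the Flk1+ mesoderm markers was lowest there (8.77 and 8.05), and lower on replicate 2. Kdr, which is among them, differed by -0.08 between the WT groups. Of those 8 markers, 6 were lower in WT Scl+ than in WT Scl- at an unadjusted p under 0.05 and 0 higher. Over all genes 3.75% were lower and 5.39% higher. Of the 9 endothelial markers tested, 8 were higher in WT Scl+ at that threshold, and of 8 early blood markers 8. Among the latter, Hba-x passed the filter only through its WT Scl+ arrays and so had to be higher there. Of 6 neural markers tested, 3 had a positive difference in WT Scl+ against WT Scl-, and 2 of these (Tubb3 and Nes) passed that threshold. Pax6, Sox3 and Elavl3 differed by -0.10, -0.11 and -0.06. Sox2 was at 5.83 and 2.86 on the WT Scl+ arrays. The mean of 7 cardiac markers was also lowest in WT Scl+, at 5.48 and 5.22, against 5.98 and 5.71 in WT Scl- and 6.04 and 5.81 in SclKO. Only Isl1 (-1.81) and Myl7 (-1.43) were lower in WT Scl+ than in WT Scl- at that threshold. Of the 7, 4 had a positive difference between the WT groups, and the median was 0.008. The mean of 6 markers of pluripotent cells was 6.43 and 5.16 in WT Scl+, 6.31 and 5.91 in WT Scl-, and 6.14 and 6.01 in SclKO, with its lowest value on WT Scl+ replicate 2. That of 7 endoderm markers was 5.59 and 4.97, then 5.12 and 4.74, then 5.49 and 5.42, with Foxa1 dim on every array. The part of these cell types in the levels of the guidance genes was not tested.

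Of the guidance genes tested, Efnb3, Ntn1 and Slit3 are on chromosome 11. The median over its 1124 tested genes was -0.15 in both SclKO comparisons, and that over genes elsewhere was 0.05 against WT Scl+ and 0.03 against WT Scl-. No other chromosome was read on its own, so whether such a median is unusual for a chromosome was not tested. These 3 genes had positive differences in SclKO against WT Scl+, of 1.77, 1.02 and 0.81.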

How the data were processed

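Total RNA of 6 samples was hybridised to 6 arrays. The submitters' processing notes name RMA, affy and limma without versions. The deposited score per probe set, which the authors made from the scans, is on an unstated scale: 1040 to 1153 probe sets per array exceed 65535, the ceiling of a 16-bit scanner. Natural logs were taken and run from 1.18 to 14.85. No per-sample column was left unused. Of 45101 probe sets, 34958 had 1 gene symbol, 932 several and 9211 none, and symbols were updated through Entrez identifiers for 34754.

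A mean per group was fitted to the 6 arrays with limma 3.58.1 in R 4.3.3 (two-sided, residual df 3, prior df 3.16), with Benjamini-Hochberg adjustment over 12922 tested genes. The fit was also run on simulated data, drawn as independent normal values. These held no array that stood apart and no shared replicate deviation, so that run does not show the precision reached here. Arrays have no read depth, and their number limits precision. Same-numbered replicates deviated together (correlations of the replicate 1 minus 2 differences 0.254, 0.247 and 0.249 between groups), so the blocked fit is given where it moved a count.

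Members, gene lists and the naming rule were chosen with earlier results of these data known. Named were members with an unadjusted p under 0.05, the extremes of each family, a list of vessel genes, and pathway genes with an unadjusted p under 0.05. The genes of the promoter windows were chosen after their values were seen. Alternatives were a replicate block, other filters, probe-set rules, normalizations and variance settings, and leaving out each array.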

Additional observations from a re-analysis of the deposited data

How the results depend on the processing

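The count of 0 guidance genes past an adjusted p under 0.05 held in all 3 comparisons under every alternative except leaving out WT Scl+ replicate 1. With each array left out in turn it ran from 0 to 5 in WT Scl+ against WT Scl-, from 0 to 11 in SclKO against WT Scl+ and was 0 in SclKO against WT Scl-. Over all genes the counts with an array left out ran from 0 to 203, 0 to 701 and 0 to 1. In SclKO against WT Scl+ the 1 gene called over all genes became 3 with the replicate block (pairing by number), 49 with only the 4 arrays compared, 9 with the stricter filter, 4 with the mean of probe sets, 2 with every probe set on its own and 18 with an intensity trend. In SclKO against WT Scl- it became 2, 4, 2 and 3 under the stricter filter, the mean of probe sets, single probe sets and the trend, and 2 with array weights. With an array left out, the median difference of the guidance genes ran from -0.19 to 0.02 in WT Scl+ against WT Scl-, so that its sign turned (0.022 without WT Scl+ replicate 2 and 0.0043 without WT Scl- replicate 1), from 0.26 to 0.47 in SclKO against WT Scl+ and from 0.11 to 0.26 in SclKO against WT Scl-. Under the stricter filter, which tests 32 guidance genes, the second was 0.60, and without a filter 0.23. The replicate block changed no other call, and the lowest adjusted p of a guidance gene under it was 0.107, 0.0533 and 0.556 in the 3 comparisons.

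Signs turned for 6 vessel genes with single arrays left out, here with the range over all arrays left out. In WT Scl+ against WT Scl-, Slit2 ran from -0.49 to 0.70 (turned without WT Scl+ replicate 1, at -0.49 and WT Scl- replicate 2, at -0.17), Ntn4 ran from -2.17 to 0.12 (turned without WT Scl+ replicate 2), Ntn1 ran from -1.15 to 0.33 (turned without WT Scl+ replicate 2, at 0.33 and WT Scl- replicate 1, at 0.014) and Ephb4 ran from -0.068 to 0.65 (turned without WT Scl- replicate 1). In SclKO against WT Scl+, Ephb4 ran from -0.44 to 0.073 (turned without WT Scl+ replicate 2), Plxnd1 ran from -0.76 to 0.15 (turned without WT Scl+ replicate 2), Slit2 ran from -0.060 to 1.13 (turned without WT Scl+ replicate 2) and Ntn4 ran from -0.24 to 2.05 (turned without WT Scl+ replicate 2). In SclKO against WT Scl-, Ephb4 ran from -0.25 to 0.46 (turned without WT Scl- replicate 1, at -0.25 and SclKO replicate 2, at -0.055), Slit3 ran from -0.25 to 0.29 (turned without WT Scl- replicate 2, at -0.14 and SclKO replicate 1, at -0.25) and Ntn4 ran from -0.39 to 0.15 (turned without SclKO replicate 2), while Ntn4 was at 0.12 with the mean of probe sets and Slit3 at -0.0072 with renewed quantile normalization. The cause was not tested. With 2 arrays a group, a difference in a dim gene such as Robo4 was not detectable.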
